A study of Rattus norvegicus with 6 samples.

Results

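Superoxide is made on purpose by the NADPH oxidases and removed by the superoxide dismutases, and 9 rat genes of these families are described here across carotid body neurospheres: the oxidase genes Cybb, Nox1, Nox4, Cyba, Ncf1 and Ncf4 and the dismutase genes Sod1, Sod2 and Sod3. They were taken by gene symbol from a table of 29214 probe sets on 6 Affymetrix arrays, in which 14506 genes could be tested. Each of the 9 was read by 1 probe set, so no choice between probe sets was needed. The carotid body, a small organ beside the carotid artery, senses the oxygen of the blood, and its dispersed cells, taken from adult rats, form floating spheres in culture. All 6 samples were grown for 10 days in neural crest medium on low-attachment plates. The labels state that the 3 samples labelled differentiated had no mitogens and were kept at 3% oxygen. For the 3 labelled undifferentiated they state FGF, IGF-1, EGF and ET-1 in normoxia. Mitogens and oxygen therefore changed together, and their effects cannot be told apart. The labels do not give the strain and do not tell whether the arrays within a group stem from different cultures or animals, so a p-value here reflects only how far these samples scatter, and that scatter may be technical.

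An NADPH oxidase carries electrons from NADPH across a membrane onto oxygen. Cybb encodes the catalytic subunit of the phagocyte enzyme, Nox1 and Nox4 encode related catalytic subunits of other cells, and Cyba encodes the small membrane protein that all of these pair with. The phagocyte enzyme rests until cytosolic subunits, among them the products of Ncf1 and Ncf4, and a Rac GTPase join it, whereas the Nox4 enzyme is active without them and releases mainly hydrogen peroxide. The dismutases turn superoxide into hydrogen peroxide in different places: the Sod1 enzyme, with copper and zinc, in the cytosol, the Sod2 enzyme, with manganese, in mitochondria, and the Sod3 enzyme, with copper and zinc, outside the cell. In the carotid body, oxidase-derived oxygen species have long been studied in connection with oxygen sensing and with chronic intermittent hypoxia.

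The values are log2 levels as deposited. Array medians lay between 5.05 and 5.13, and arrays correlated (Pearson, all probe sets) at 0.986 to 0.993 within groups and 0.959 to 0.970 between groups. The labelled state was checked against markers of glomus cells, the catecholamine-making, neuron-like cells of the organ: all 10 measured markers fell in the arrays labelled differentiated, with a median log2 difference of -2.80. Th, tyrosine hydroxylase, had log2 levels of 10.73, 11.32 and 10.65 in the arrays labelled differentiated and of 13.76, 13.59 and 13.91 in the arrays labelled undifferentiated. The 7 measured genes of cell division all rose in the same arrays, which by their labels had no mitogens, with a median log2 difference of 1.35. These values go against the labels, so groups are called by their labels, and a rise or fall always refers to the arrays labelled differentiated. The mitogens and oxygen of each array are known from the same labels alone.

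Catalytic oxidase subunits moved in opposite directions and so did the dismutases, so the start regions of 4 such genes are shown first. RefSeq promoters of the GRCr8 assembly were found for 7 of the 9 genes, Sod3 and Ncf4 being the exceptions. The 250 bases before the annotated start are printed 5′ to 3′ on the strand of the gene. Capitals mark the core of the hypoxia response element, ACGTG or GCGTG, and the core bound by PU.1, a transcription factor of myeloid cells, GAGGAA, each on either strand. The regions are chrX:16065066-16065315 on the minus strand for Cybb, chrX:101595521-101595770 on the minus strand for Nox1, chr1:150313639-150313888 on the plus strand for Nox4 and chr1:50050169-50050418 on the minus strand for Sod2.
Cybb: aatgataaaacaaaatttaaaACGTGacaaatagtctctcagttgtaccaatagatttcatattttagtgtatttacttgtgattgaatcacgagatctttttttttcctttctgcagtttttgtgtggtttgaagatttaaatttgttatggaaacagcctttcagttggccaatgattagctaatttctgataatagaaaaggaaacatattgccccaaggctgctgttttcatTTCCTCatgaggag
Nox1: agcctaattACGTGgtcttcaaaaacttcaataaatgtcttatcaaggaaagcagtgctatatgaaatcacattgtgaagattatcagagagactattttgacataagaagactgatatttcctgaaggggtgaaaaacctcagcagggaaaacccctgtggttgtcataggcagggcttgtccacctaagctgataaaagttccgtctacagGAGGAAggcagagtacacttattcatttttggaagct
Nox4: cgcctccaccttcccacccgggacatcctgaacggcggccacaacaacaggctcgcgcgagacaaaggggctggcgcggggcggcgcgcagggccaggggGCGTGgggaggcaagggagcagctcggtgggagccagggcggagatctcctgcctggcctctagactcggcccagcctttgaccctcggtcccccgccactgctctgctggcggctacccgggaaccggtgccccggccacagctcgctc
Sod2: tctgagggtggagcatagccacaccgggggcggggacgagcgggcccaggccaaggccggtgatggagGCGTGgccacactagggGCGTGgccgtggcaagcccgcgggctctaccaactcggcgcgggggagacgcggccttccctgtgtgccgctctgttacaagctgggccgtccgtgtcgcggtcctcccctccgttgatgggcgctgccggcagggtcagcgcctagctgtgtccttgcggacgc

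The Cybb region was poor in G and C, with 80 of 250 bases, and had a hypoxia core starting 229 bases and a PU.1 core starting 14 bases before the annotated start. The Nox1 region, with 100 G or C, likewise held 1 match to each. The Nox4 and Sod2 regions were rich in G and C, with 182 and 179 such bases and no PU.1 core, and held 1 and 2 hypoxia cores. Of the regions not printed, that of Sod1 held 1 hypoxia core and those of Cyba and Ncf1 none. These matches describe letters only. Among 33469 rat promoters in the same table, 36.7% held a hypoxia core and 23.3% a PU.1 core in the same window. The antioxidant response core TGACNNNGC, found in 10.1% of them on either strand, was present before Ncf1 and Sod2 and in none of the other 5, and the GC box GGGCGG, found in 30.5%, was present before all except Cybb and Nox1. The motifs overlapped in none of the 4 printed regions.

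Of the 9 genes, 4 rose (Nox4, Sod3, Nox1 and Cyba), 3 fell (Cybb, Sod2 and Sod1) and 2 did not pass (Ncf1 and Ncf4) at a limma adjusted p under 0.05. Over all genes tested 29.5% passed this rule, 14.7% higher and 14.9% lower. The 3 arrays of one label all lay above the 3 of the other in 7 of the 9 genes, against 42.3% of all genes. The median log2 difference of the 9 genes was -0.00199, with changes of both signs, and that of all genes was 0.06. The RNA comes from whole spheres, so a change in the number of cells of a type and a change in RNA per cell cannot be told apart.

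**Figure D1:**
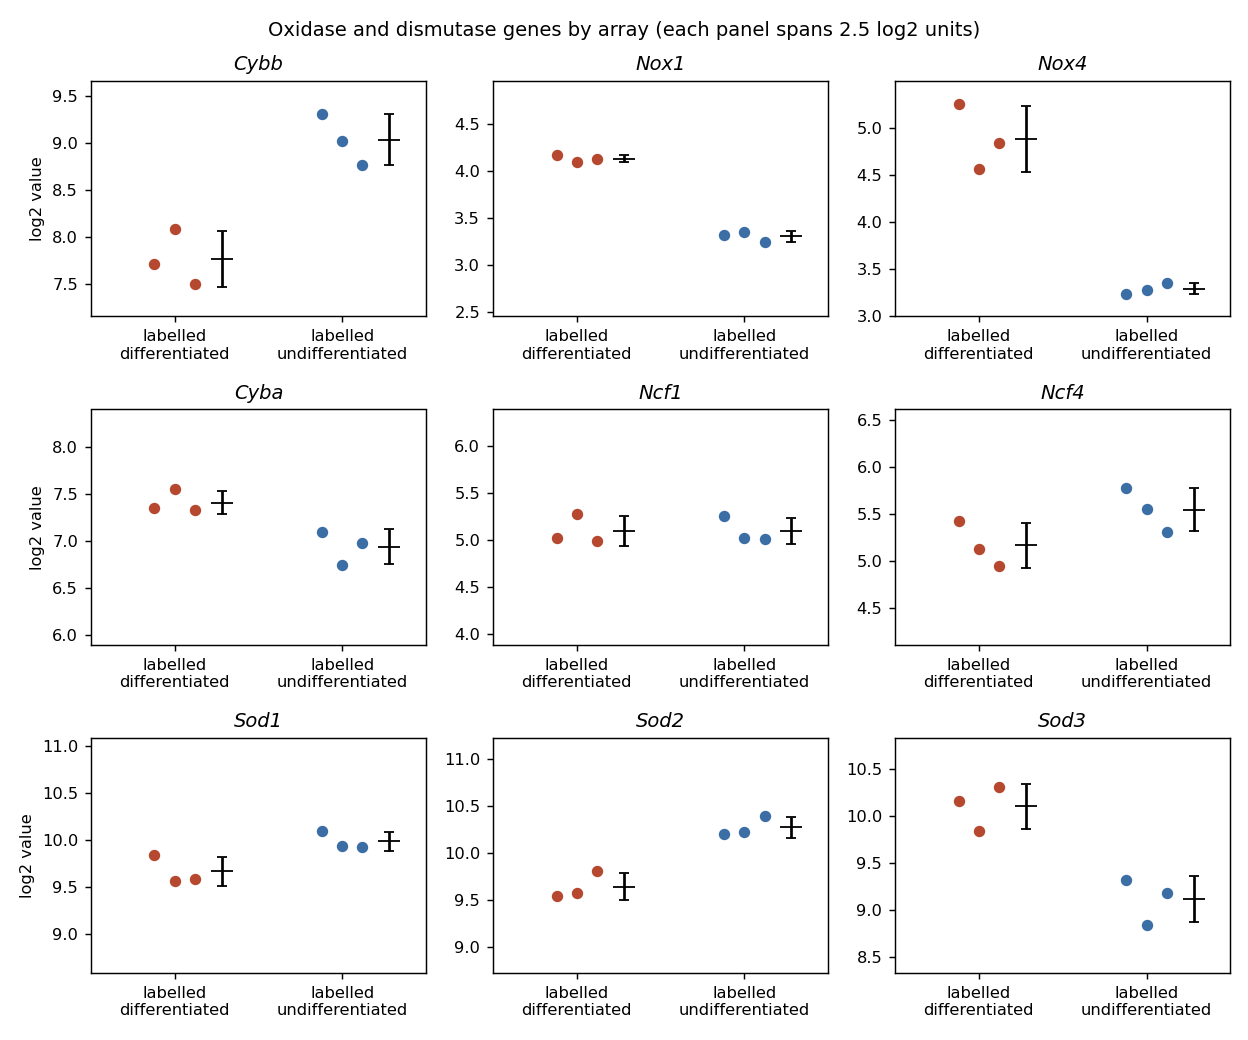
Log2 value (vertical axis) of each of the 9 genes in the 3 arrays labelled differentiated (red points, left) and the 3 labelled undifferentiated (blue points, right), with bars giving the mean and SD of each group; every panel spans the same number of log2 units around its own centre. The red points lie above the blue ones for Nox1, Nox4, Cyba and Sod3, below them for Cybb, Sod1 and Sod2, and among them for Ncf1 and Ncf4.

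Cybb, the phagocyte catalytic subunit, had log2 levels of 7.72, 8.09 and 7.50 in the arrays labelled differentiated, against 9.31, 9.02 and 8.77 in those labelled undifferentiated. The groups did not overlap. Its mean was 7.77 ± 0.30 in the arrays labelled differentiated and 9.03 ± 0.27 in those labelled undifferentiated (SD, n = 3 each). The difference was -1.27 ± 0.16 (SE, limma adjusted p = 0.000147), a 2.40-fold fall, with a 95% interval of -1.63 to -0.90. Among all probe sets of its array the probe set stood at percentiles 83.4 to 88.7 in the arrays labelled differentiated and 92.9 to 95.4 in those labelled undifferentiated, so it was not a dim one.

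Nox4, the constitutively active catalytic subunit, had log2 levels of 5.26, 4.56 and 4.84 in the arrays labelled differentiated, against 3.24, 3.28 and 3.36 in those labelled undifferentiated. It rose by 1.59 ± 0.18 (SE, limma adjusted p = 5.38e-05), a 3.01-fold difference and the largest of the 9 on the log2 scale. The values labelled undifferentiated, at percentiles 22.1 to 24.9 of their arrays, are among the dimmest probe sets, and whether they stood over background is not known, so the size of the rise is uncertain. Spread was wider in the arrays labelled differentiated (SD 0.35) than in those labelled undifferentiated (SD 0.06).

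Nox1, the catalytic subunit best known from colon epithelium and smooth muscle, had log2 levels of 4.16, 4.10 and 4.12 in the arrays labelled differentiated, against 3.32, 3.35 and 3.24 in those labelled undifferentiated. It rose by 0.82 ± 0.13 (SE, limma adjusted p = 0.0007). Here the groups were narrow and wide apart, but the gene was dim in all arrays, at percentiles 33.7 to 35.5 in those labelled differentiated and 23.0 to 24.2 in those labelled undifferentiated. Nox1 and Nox4 were the only members in the dimmest 40% of all probe sets by mean, and a fit without such genes held 7 members, of which 2 rose and 3 fell.

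Cyba, the membrane partner of all 3 catalytic subunits, had log2 levels of 7.34, 7.55 and 7.33 in the arrays labelled differentiated, against 7.10, 6.74 and 6.98 in those labelled undifferentiated. It rose by 0.47 ± 0.12 (SE, limma adjusted p = 0.0121), a 1.38-fold difference. This rise ran opposite to the fall of Cybb. The adjusted p was 0.0846 in a test without moderation of the variance.

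The cytosolic subunits gave no call. Ncf1, the organizer that docks the cytosolic complex onto the membrane, had log2 levels of 5.02, 5.28 and 4.99 in the arrays labelled differentiated, against 5.25, 5.02 and 5.01 in those labelled undifferentiated. Its difference was -0.00199 ± 0.14 (SE, limma adjusted p = 0.995), with a 95% interval of -0.31 to 0.31. The groups overlapped fully, and the interval bounds any change in signal to a size below that of Cybb. The probe set stood at percentiles 48.4 to 52.3 in the arrays labelled differentiated and 48.7 to 52.7 in those labelled undifferentiated. Whether it stood over background is not known, so a change in RNA is less firmly bounded. Ncf4, the subunit that binds phosphoinositide on phagosomes, had log2 levels of 5.43, 5.13 and 4.95 in the arrays labelled differentiated, against 5.78, 5.56 and 5.31 in those labelled undifferentiated. Its difference was -0.38 ± 0.16 (SE, limma adjusted p = 0.113), with a 95% interval of -0.74 to -0.02 before adjustment. The groups overlapped by 1 array on each side, and the direction of the difference is that of Cybb. Ncf4 stood at percentiles 47.8 to 55.1 in the arrays labelled differentiated and 53.7 to 59.8 in those labelled undifferentiated.

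**Figure D2:**
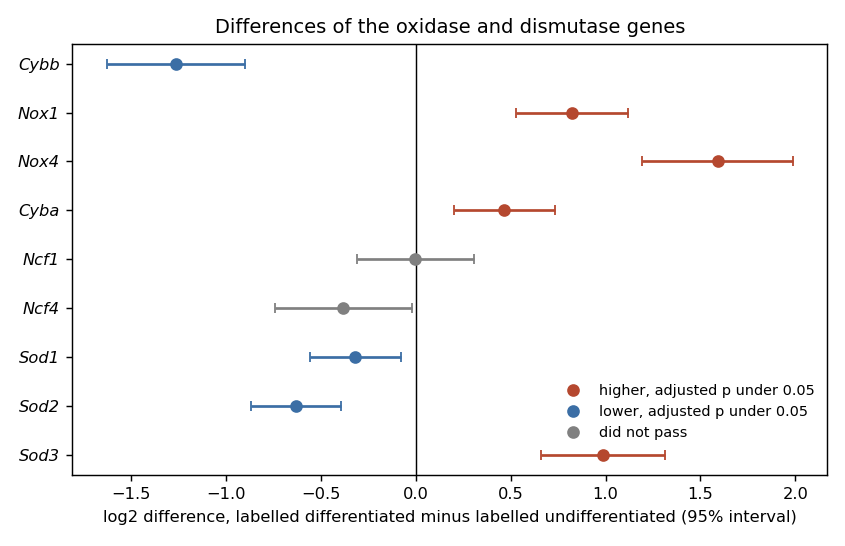
Log2 difference (horizontal axis) of each gene, arrays labelled differentiated minus those labelled undifferentiated, with its 95% interval from the limma fit (n = 3 each); red points rose, blue points fell and grey points did not pass. The oxidase genes run from -1.27 for Cybb to 1.59 for Nox4, and the dismutases from -0.63 for Sod2 to 0.99 for Sod3.

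Among the dismutases, Sod3, the extracellular enzyme, had log2 levels of 10.15, 9.83 and 10.31 in the arrays labelled differentiated, against 9.31, 8.84 and 9.18 in those labelled undifferentiated. It rose by 0.99 ± 0.15 (SE, limma adjusted p = 0.000409), a 1.98-fold difference with a 95% interval of 0.66 to 1.31. In both groups replicate 2 was the lowest array, and the groups did not overlap.

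Sod2, the mitochondrial enzyme, had log2 levels of 9.55, 9.57 and 9.80 in the arrays labelled differentiated, against 10.19, 10.22 and 10.39 in those labelled undifferentiated. Sod2 fell by 0.63 ± 0.11 (SE, limma adjusted p = 0.000997), a 1.55-fold difference. The highest array labelled differentiated stayed below the lowest one labelled undifferentiated. Sod1, the cytosolic enzyme, had log2 levels of 9.84, 9.57 and 9.59 in the arrays labelled differentiated, against 10.10, 9.93 and 9.92 in those labelled undifferentiated. Sod1 fell by 0.32 ± 0.11 (SE, limma adjusted p = 0.0468), a 1.25-fold difference. Its groups lay close together, and the call was lost when any single array other than differentiated replicate 1 was left out (adjusted p = 0.0635 to 0.168) and with array medians subtracted (adjusted p = 0.0556).

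Unequal change within the families was read from differences within each array, for 6 pairs of genes, with an exact two-sided permutation test over the 20 assignments of arrays. Its smallest possible p is 0.1, so no pair can pass 0.05, and the adjusted p over the 6 pairs is 0.12 at best. Sod3 relative to Sod2 was 3.06-fold higher in the arrays labelled differentiated (log2 difference 1.62, exact p = 0.1), and Sod3 relative to Sod1 was 2.47-fold higher (log2 difference 1.30, exact p = 0.1). For both pairs the groups were apart. That had to be so, since Sod3 rose and Sod2 and Sod1 fell with no overlap of groups, and it is no separate result. Sod2 relative to Sod1 differed by -0.31 (exact p = 0.2), with groups that overlapped, and by -0.17 without differentiated replicate 1. Among the oxidase genes, Nox4 relative to Cybb was 7.25-fold higher (log2 difference 2.86, exact p = 0.1) and Nox4 relative to Cyba 2.18-fold higher (log2 difference 1.12, exact p = 0.1), while Cybb relative to Cyba was 3.32-fold lower (log2 difference -1.73, exact p = 0.1). The groups were apart in these 3 pairs too. For Nox4 with Cybb and Cybb with Cyba this again follows from the single genes, whose groups were apart in opposite directions. The folds with Nox4 carry the uncertainty of its dim values.

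Cybb, Ncf1 and Ncf4 are best known from phagocytes, so leukocyte markers are set beside them. Of 18 measured macrophage and leukocyte genes 3 rose, 4 fell and 11 did not pass, with a median log2 difference of -0.10. The mean log2 level of the list ran from 6.97 to 7.68 in the arrays labelled differentiated and from 7.03 to 7.56 in those labelled undifferentiated, so the groups overlapped. Tyrobp, an adaptor of myeloid receptors, rose by 1.24 and Cd14, a receptor for bacterial lipopolysaccharide, rose by 0.68. Both calls were lost in a test without moderation of the variance (adjusted p = 0.157 and 0.123). Cd74, a chaperone of MHC class II, fell by 2.64, and Cd53, a leukocyte tetraspanin, fell by 0.84, and both kept their calls in that test. Members of the list therefore changed in both directions. Differentiated replicate 2, the array with the highest list mean of its group, also had the highest Cybb, Cyba and Ncf1 of that group, while Ncf4 was highest in differentiated replicate 1 (5.43, against 5.13 in replicate 2).

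Taken relative to the mean of those 18 markers in the same array, a measure added after the values were seen, Cybb stood at 0.65, 0.41 and 0.53 in the arrays labelled differentiated, against 1.75, 1.54 and 1.74 in those labelled undifferentiated. The difference on this scale was -1.15, beside -1.27 for Cybb as deposited, and its SD within groups was 0.12 in both, narrower than without the subtraction. The SD widened for Cyba, to 0.26 and 0.35 in the arrays labelled differentiated and undifferentiated, and for Ncf1, to 0.22 and 0.23. For Ncf4 it widened to 0.46 in the arrays labelled differentiated and was 0.10 in those labelled undifferentiated. Cyba differed by 0.59 on this scale, with overlapping groups, and Ncf4 by -0.26, also overlapping. All 8 neutrophil markers measured missed the threshold, the smallest p being those of Elane (0.35, limma adjusted p = 0.0789) and Ltf (0.34, adjusted p = 0.122). The mean log2 level of that list was 3.41 to 3.47 in the arrays labelled differentiated and 3.22 to 3.36 in those labelled undifferentiated, below the lower quartile of each array.

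Other marker lists differed between the groups. Of 10 fibroblast and mesenchymal progenitor genes 9 rose and 0 fell (median 1.10), Prrx1, a mesenchymal transcription factor, by 1.77 and Pdgfra, a growth factor receptor of mesenchymal cells, by 1.46. The mean log2 level of this list was 10.63 to 10.75 in the arrays labelled differentiated and 9.24 to 9.45 in those labelled undifferentiated. Smooth muscle and pericyte genes rose in 4 and fell in 1 of 8 cases (median 0.52). Cald1 and Acta2, of the contractile apparatus, rose by 1.33 and 0.97, and Rgs5, a regulator of G protein signalling in pericytes, fell by 2.28. Of the cell division genes, Top2a rose by 1.45 and Prc1 by 1.35. The glomus cell list had a mean log2 level of 7.57 to 8.05 in the arrays labelled differentiated and 10.55 to 10.77 in those labelled undifferentiated, and Cox4i2, a cytochrome oxidase subunit, fell by 3.50 and Gch1, which makes a cofactor of tyrosine hydroxylase, by 3.23.

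The remaining lists showed no common direction. Of 8 glial and Schwann genes 3 rose and 1 fell (median 0.27), Egr2 by 0.61 and Foxd3 by 0.35, and Mbp, a myelin protein, fell by 1.97. The call for Egr2 was lost without differentiated replicate 3 (limma adjusted p = 0.0816) and undifferentiated replicates 2 (0.0827) and 3 (0.0716), and Foxd3 without differentiated replicates 2 (0.0561) and 3 (0.115) and undifferentiated replicates 1 (0.0818) and 2 (0.0966). Of 8 neuronal genes 2 rose and 2 fell (median -0.03): Nefl by 1.21 and Gap43 by 0.65 upward, Snap25 by -2.04 and Map2 by -0.85 downward. Of 8 endothelial genes 2 rose and 1 fell (median 0.03): Erg by 0.96 and Eng by 0.80 upward, Cldn5 by -2.31 downward. What part these shifts have in the changes of Nox4, Sod3 and the other members was not tested.

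**Figure D3:**
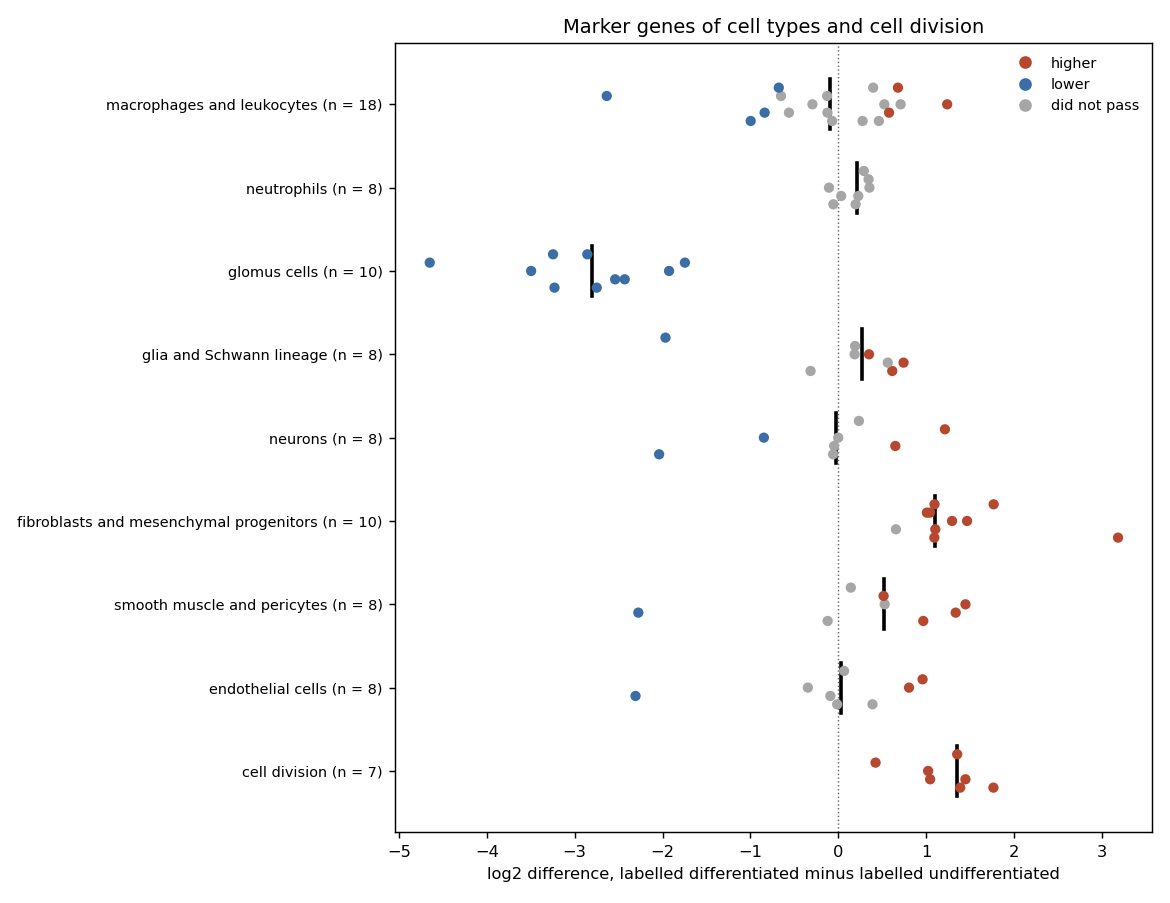
Log2 difference (horizontal axis) of each measured marker gene, arrays labelled differentiated minus those labelled undifferentiated, by list (vertical axis); black bars are list medians, red points rose, blue points fell and grey points did not pass. The macrophage and leukocyte list straddles 0 with a median of -0.10, the fibroblast list centres on 1.10 and the glomus cell list on -2.80.

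Around the oxidases, 13 partners and regulators were measured, of which 3 rose, 0 fell and 10 did not pass (median 0.13). Rac2, the Rac GTPase of blood cells, had log2 levels of 7.79, 8.80 and 7.87 in the arrays labelled differentiated, against 7.24, 6.99 and 6.39 in those labelled undifferentiated, and rose by 1.28 ± 0.26 (SE, limma adjusted p = 0.00345). Its groups did not overlap, but its spread was wide, and differentiated replicate 2 was the highest array. The call for Rac2 was lost in a test without moderation of the variance (adjusted p = 0.117). Rac1, the Rac GTPase of most cells, differed by 0.13 ± 0.10 (SE, limma adjusted p = 0.387). Sh3pxd2a, a scaffold related to the Ncf1 product that organizes invasive protrusions, rose by 1.06 ± 0.16 (SE, limma adjusted p = 0.000509). Duoxa1, the maturation factor of a dual oxidase, was the other that rose (0.39, adjusted p = 0.045), a call lost when any single array except differentiated replicate 3 was left out (adjusted p = 0.0543 to 0.143). Noxo1 and Noxa1, the organizer and activator of the Nox1 enzyme, differed by 0.10 and 0.07 and did not pass; with 1 array left out, Noxo1 ran from 0.03 to 0.22 and Noxa1 from 0.02 to 0.10. Duoxa1, Noxo1 and Noxa1 were named after their values were seen.

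Of 9 genes listed under copper and manganese supply 3 rose, 1 fell and 5 did not pass (median 0.20). Slc39a14, a carrier of manganese and other metals, had log2 levels of 10.41, 10.16 and 10.37 in the arrays labelled differentiated, against 9.13, 8.85 and 8.96 in those labelled undifferentiated, and rose by 1.33 ± 0.11 (SE, limma adjusted p = 5.23e-06). Among the copper pumps, Atp7a, which loads copper into secreted enzymes, rose by 0.53 ± 0.10 (SE, adjusted p = 0.00213), and Atp7b fell by 1.01 ± 0.13 (SE, adjusted p = 0.000153). Ccs, the chaperone that hands copper to the Sod1 enzyme, differed by -0.14 ± 0.11 (SE, limma adjusted p = 0.428), and by -0.22 without differentiated replicate 1 and -0.08 without differentiated replicate 2. The other listed gene that rose was Slc25a37, at 0.85 (adjusted p = 0.00323), named after its value was seen. It is known as an importer of iron into mitochondria, so its place in this list is loose.

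Hydrogen peroxide, the product of the dismutases, is removed by catalase, glutathione peroxidases and peroxiredoxins, and the thioredoxin system recharges the peroxiredoxins. Of 18 measured genes of these groups 9 rose, 2 fell and 7 did not pass (median 0.24). Gpx8 and Gpx7, peroxidases of the endoplasmic reticulum, rose by 1.63 ± 0.14 and 0.94 ± 0.12 (SE, limma adjusted p = 7.41e-06 and 0.000169). Gpx8 had log2 levels of 8.72, 8.80 and 8.77 in the arrays labelled differentiated, against 7.19, 6.79 and 7.42 in those labelled undifferentiated. Srxn1, which repairs overoxidized peroxiredoxins, fell by 0.62, and Prdx6, a peroxiredoxin that also acts on phospholipids, fell by 0.50 (adjusted p = 0.0147). Prdx6 lost its call without differentiated replicate 1 (adjusted p = 0.0503), undifferentiated replicate 1 (0.0658) and undifferentiated replicate 3 (0.0656). Cat, catalase itself, differed by -0.27 ± 0.11 (SE, limma adjusted p = 0.0933) and passed without differentiated replicate 1 (adjusted p = 0.0289).

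Of 9 genes of glutathione and NADPH supply 3 rose, 2 fell and 4 did not pass (median 0.13). Idh2, a mitochondrial source of NADPH, and Gss, of glutathione synthesis, rose by 1.10 and 1.03, while Gclm, the regulatory subunit of the first enzyme of that synthesis, fell by 0.98 and the cytosolic NADPH source Me1 fell by 0.63. Of 12 measured genes of Nrf2, the regulator of antioxidant genes, and its targets 2 rose, 6 fell and 4 did not pass (median -0.39). Hmox1, heme oxygenase, had log2 levels of 8.07, 8.84 and 8.36 in the arrays labelled differentiated, against 11.50, 11.54 and 11.71 in those labelled undifferentiated, and fell by 3.16 ± 0.17 (SE, limma adjusted p = 1.93e-07). Fth1, the ferritin heavy chain, fell by 1.04, whereas Nqo1, a quinone reductase, and Nfe2l2, which encodes Nrf2, rose by 1.04 and 0.60. The list was thus divided, and 5 of its genes also stand in the glutathione and peroxide lists.

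Of 10 other sources of superoxide or peroxide 2 rose, 2 fell and 6 did not pass (median 0.23). Lox, the collagen cross-linking oxidase, rose by 1.71 and Maob, a monoamine oxidase, by 0.57. The call for Maob (limma adjusted p = 0.0231) was lost without any single array except differentiated replicate 2. Maob was also dim, with mean log2 levels of 4.22 in the arrays labelled differentiated and 3.65 in those labelled undifferentiated. Both lie below 4.44, the cut for the dimmest 40% of probe sets, so the size of its rise is uncertain. Ero1a, the oxidase of the endoplasmic reticulum, fell by 1.36, and the other monoamine oxidase Maoa fell by 0.54. Over the union of these lists 22 of 66 genes rose, 11 fell and 33 did not pass. Among all genes tested 14.7% rose and 14.9% fell. The median log2 difference of the union was 0.16, beside 0.06 for all genes.

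**Figure D4:**
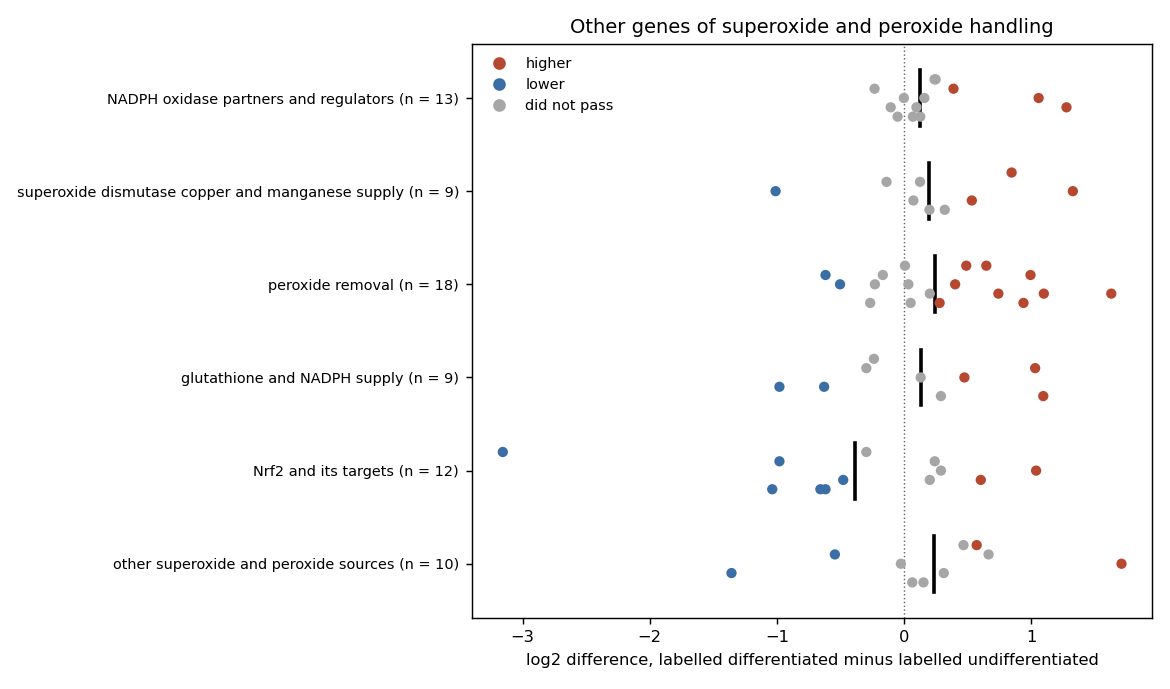
Log2 difference (horizontal axis) of each measured gene of the 6 pathway lists (vertical axis), arrays labelled differentiated minus those labelled undifferentiated; black bars are list medians, red points rose, blue points fell and grey points did not pass. The list medians lie between -0.39 and 0.24, and Hmox1, at -3.16, is the lowest point.

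The genes whose log2 profile over the 6 arrays, each less its own mean, came nearest to that of Nox4 by root mean square difference were Zfp521 (0.117), Slc20a1 (0.125) and Inhba (0.145). They rose by 1.60, 1.48 and 1.54, and in each of them, as in Nox4, replicate 1 was the highest and replicate 2 the lowest of the arrays labelled differentiated. Nearest to Sod3 were Gstp1 (0.0428), Pdgfrb (0.0604) and Chst12 (0.0624), which rose by 0.98, 1.01 and 0.96. In these 3 genes and in Sod3 replicate 2 was the lowest array of each group. The genes were picked for nearness over these same 6 arrays. A like rise and a like order of replicates therefore come largely from that choice and are no separate result. Pdgfrb is also among the fibroblast and mesenchymal markers above.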

How the data were processed

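RNA of 6 samples was measured on Affymetrix arrays, from 100 ng total RNA made into biotin-labelled cRNA, per the labels' protocols. The authors deposited 1 log2 value per probe set and array; the base was inferred from the range of the values, and of the background correction, normalization, summarization and software nothing is given in the sources used here. The values were used as deposited. The number of arrays limits the precision.

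Of 29214 probe sets, 15310 had 1 gene symbol in the platform table, 323 had several and 13581, absent from it, stay unnamed. Per gene the probe set of highest mean was kept, giving 14506 genes. The 6 arrays were fitted together with limma 3.58.1 under R 4.3.3 (lmFit, eBayes with trend, no block), two-sided, with Benjamini-Hochberg adjustment over all genes at 0.05. Intervals are unadjusted 95% intervals of that fit. The fit was tested on simulated data. The 15 gene lists are described by counts and medians, with no test of a list; listed genes without such a probe set were not analysed here.

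The members and the lists were chosen with earlier results of these data known. The text names all 9 members, of each list up to 2 called genes of smallest p on the side of its median and up to 2 on the other side (where no gene was called, the 2 of smallest p), Rac1, Rac2, Ccs, Cat and Th in any case, and the 3 genes of nearest profile to the oxidase and the dismutase member with the smallest p. Promoters are RefSeq's, assembly GRCr8. Figures used matplotlib 3.10.9 in Python 3.11.15. Alternatives were a replicate block, other scalings, dim genes left out, other probe set rules, other moderation, array weights, all probe sets, an unmoderated test and leaving out each array.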

Additional observations from a re-analysis of the deposited data

How the results depend on the processing

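Nox4, Nox1, Cybb, Sod2 and Sod3 kept their direction and their call under every alternative that could be fitted; Nox1 and Nox4 have no value with dim genes left out. Leaving out each array moved Nox4 between 1.41 and 1.75, Nox1 between 0.79 and 0.85, Cybb between -1.42 and -1.13, Sod2 between -0.71 and -0.57, Sod3 between 0.85 and 1.12, Cyba between 0.37 and 0.55 and Ncf4 between -0.51 and -0.27. Sod1 ran between -0.41 and -0.26 and lost its call in 5 of these 6 fits, and also with array medians subtracted (-0.35), without the variance trend, over all probe sets and without moderation (-0.32 in these 3). Cyba lost its call without moderation (0.47). Ncf1 ran between -0.0941 and 0.0765 and turned positive without differentiated replicates 1 (0.04) and 3 (0.05) and undifferentiated replicate 1 (0.0765), and relative to the leukocyte markers (0.12), an alternative chosen after seeing the data. Without moderation 2740 genes changed in place of 4286, and 20 pathway genes in place of 33; the cause was not tested. With each array left out these counts ran from 3545 to 4030 and from 29 to 33. With array medians subtracted, 1862 genes were higher and 2220 lower, against 2128 and 2158. The replicate number as a block (pairing not stated) gave 4430 genes, 7 members, 33 pathway genes and Sod1 at an adjusted p of 0.0319. Deviations of same-numbered arrays correlated at 0.115, 0.1243 and -0.0038, and 2 of the 3 arrays labelled differentiated correlated best with their own number. Of 60 other named genes, Keap1 not included, 45 kept direction and call throughout and 0 reversed. The other 15 changed call in at least 1 alternative, 9 of them only without moderation. Those 9 were Cd14, Eng, Maoa, Map2, Nefl, Rac2, Sh3pxd2a, Slc25a37 and Tyrobp. Besides the single arrays named above, Egr2, Prdx6 and Maob lost their calls in the unmoderated test (adjusted p = 0.133, 0.128 and 0.102). Foxd3 lost its call in that test (0.0566) and with array medians subtracted (0.0657). Duoxa1 did so in that test (0.0831), with the replicate block (0.0662), array medians subtracted (0.066), array weights (0.0559) and all probe sets (0.0692). The pair differences kept their signs in all alternatives run. No signal over background was given, which limits the sizes for Nox1, Nox4 and other dim genes, and how firmly a lack of change in Ncf1 can be read.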
